A study of Mus musculus with 6 samples.

Results

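The genes described here are 10 regulators and markers of the epithelial-mesenchymal transition: the transcription factors Zeb1, Zeb2, Snai1, Snai2, Twist1 and Twist2, the cadherins Cdh1 and Cdh2, the intermediate filament gene Vim and the splicing factor gene Esrp1. They were taken by name, as the rows of the deposited count table that carry one of these symbols, with earlier results of these data known. All 10 were found among its 24167 genes. They were measured in metastases that 4T1 cells, from a triple-negative mammary carcinoma of BALB/c mice, formed in the liver. In the shZdhhc17 group the injected cells carried a lentiviral hairpin against Zdhhc17, which encodes a palmitoyltransferase, one of the enzymes that join palmitate to cysteines of proteins. In the shSCR group they carried a scrambled hairpin in the same kind of vector, and both lines had been selected with puromycin. All mice were BALB/c females of 6 to 8 weeks, each injection held 500000 cells and was given hydrodynamically into the tail vein, and the metastases were dissected on day 10. Each group has 3 libraries of polyadenylated RNA.

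These groups have limits as a model. The labels name a single silencing hairpin, and the hairpin is present in the injected cells but not in the liver, stromal and immune cells of the host that the dissected tissue also holds. Whether each library comes from a single animal is not spelled out in the labels, so the p-values reflect only how these samples spread, which may be partly technical. In such bulk tissue, fewer cells of a type and less RNA per cell cannot be told apart.

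In the epithelial-mesenchymal transition, epithelial cells loosen their junctions, lose apical-basal polarity and gain migratory, mesenchymal properties. Factors of the Snail, Zeb and Twist families repress epithelial genes by binding E-box motifs, with the E-cadherin gene Cdh1 as the classic target. N-cadherin and vimentin are common mesenchymal markers, and Esrp1 keeps the epithelial splice forms of many transcripts. In carcinomas the programme is often partial, so that epithelial and mesenchymal markers occur together. None of these genes marks cancer cells alone in this tissue: hepatocytes make both E-cadherin and N-cadherin, and fibroblasts, endothelial cells and leukocytes make vimentin.

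The Zeb factors are held in a double-negative loop with the miR-200 family of microRNAs, which target Zeb1 and Zeb2 transcripts and are repressed by the Zeb proteins. The mature sequences of the family are shown because their seeds, bases 2 to 8 in capitals, set the pairing partners counted for the 10 genes. They are from RefSeq on GRCm38.p6. The family has 2 seeds, the first shared by 3 of its members and the second by the other two.
miR-200b-3p (chr4:156055685-156055706, minus strand): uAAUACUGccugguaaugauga
miR-200c-3p (chr6:124718324-124718346, minus strand): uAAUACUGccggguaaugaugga
miR-429-3p (chr4:156053916-156053937, minus strand): uAAUACUGucugguaaugccgu
miR-200a-3p (chr4:156054911-156054932, minus strand): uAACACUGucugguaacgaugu
miR-141-3p (chr6:124717917-124717938, minus strand): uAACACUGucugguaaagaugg

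Matches to these seeds (CAGTATT and CAGTGTT, on the transcript strand only) were counted in the longest annotated 3′ untranslated region of each gene in GENCODE M21. The Zeb1 region held 9 matches in 2401 bases and the Zeb2 region 9 in 4941 bases, in each case 5 of the first kind and 4 of the second. Snai2 held 2, Snai1 held 1, and the other 6 genes held none. Of 21020 genes with such a region, 25.8% held a match, and 3 held at least 9, with 15 the most in any gene. Of the 4149 genes whose region is at least as long as that of Zeb1, 60.4% held a match, with a median of 1. Of the Zeb2 matches, 3 are shown with the bases before them to make the pairing with each seed visible, with the match in capitals and the name giving its first base in the untranslated region.
Zeb2 at 393: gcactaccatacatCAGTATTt
Zeb2 at 458: gcactacagtgcatCAGTATTa
Zeb2 at 209: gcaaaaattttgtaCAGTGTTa
A match is a description of the sequence, and mature microRNAs are not captured by libraries of polyadenylated RNA.

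The libraries held 15832837 to 19186615 gene counts and 21728 to 22269 detected genes. The targeted transcript, Zdhhc17 (ENSMUSG00000035798.15), had 25.8, 27.7 and 25.9 CPM in shZdhhc17 metastases, against 33.7, 32.4 and 34.1 CPM in shSCR metastases, where CPM stands for counts relative to a library's total, scaled by TMM, edgeR's trimmed mean method. All 3 shZdhhc17 values were lower than all shSCR values, as in 9.62% of all tested genes. The log2 fold change of Zdhhc17 was -0.33 ± 0.11 (SE), with an edgeR adjusted p of 0.383. A pair of libraries stood apart from the rest. The first principal component (47.8% of the variance) put shSCR replicate 3 at 54.8 and the others between -28.4 and 9.31. The second (21.2%) put shZdhhc17 replicate 1 at 36.9 and the others between -18.0 and 7.58. The summed CPM of 13 hepatocyte markers was 43142, 61520 and 51756 in shZdhhc17 replicates 1, 2 and 3, against 53126, 39579 and 20638 in shSCR replicates 1, 2 and 3, so shSCR replicate 3 held the least hepatocyte RNA. The sum of 18 carcinoma epithelial markers, led by Lcn2, was 5286, 4245 and 3818 CPM in shZdhhc17 replicates, against 4780, 3562 and 3820 CPM in shSCR replicates, and the groups overlapped. Lcn2 itself had 1358, 1300 and 1457 CPM in shZdhhc17 replicates, against 879, 790 and 322 CPM in shSCR replicates. By contrast, 11 of the 18 markers had negative estimates (median log2 fold change -0.20). Bulk counts do not show which cells made Lcn2, so the sum need not follow cancer cells alone. The sum of 14 stellate cell and fibroblast markers was 4157 to 4993 CPM in shZdhhc17 metastases, against 5228 to 9791 CPM in shSCR metastases. Collagen transcripts made up most of this sum. Col3a1 averaged 1832 CPM in shZdhhc17 and 2572 CPM in shSCR metastases, Col1a1 1052 and 1920, and Col1a2 862 and 1554. Of the 14 estimates, 4 were positive and 10 negative. At an edgeR unadjusted p under 0.05, 2 were higher and 6 lower, where 4.72% of all tested genes were higher and 6.71% lower. The sum therefore need not follow the number of these cells. No gene of these lists was at 0 in any library.

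Levels were set per kilobase of merged exons, which join all annotated transcripts of a gene, from 1621 bases for Snai1 to 19942 for Zeb2. Such a length can exceed that of the transcripts made, so levels of different genes compare only roughly. As means over the 6 libraries, the 10 genes spanned from 326 CPM per kb for Vim to 0.142 CPM per kb for Twist2. Between them came Cdh1 at 26.4, Snai1 at 17.1, Twist1 at 9.94, Cdh2 at 5.50, Zeb2 at 3.41, Snai2 at 3.23, Esrp1 at 2.99 and Zeb1 at 2.19 CPM per kb. Per merged exon length, the metastases held more E-cadherin than N-cadherin transcript on average, beside abundant vimentin. Neighbours in this order were separated in all 6 libraries, with ranges that did not overlap, in 3 places: Vim above Cdh1, Snai1 above Twist1 and Zeb1 above Twist2. Zeb2 stood above Snai2 in 3 of 6 libraries and Snai2 above Esrp1 in 3 of 6, so these levels were not ordered beyond their spread. Cdh1 exceeded Snai1, Twist1 exceeded Cdh2 and Cdh2 exceeded Zeb2 in 5 of 6 libraries each.

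**Figure D1:**
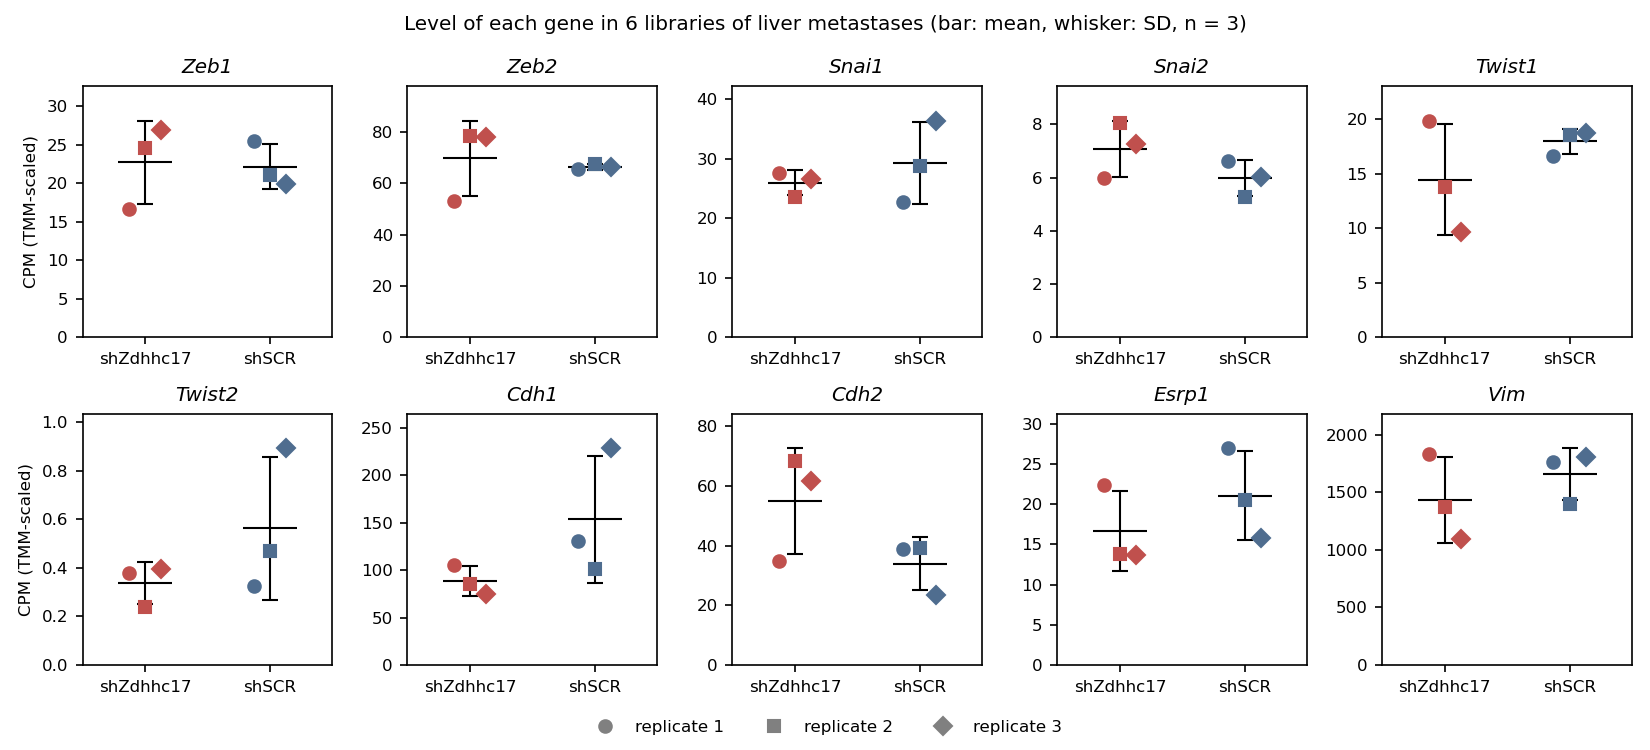
Level of each of the 10 genes in CPM (TMM-scaled, linear axes from 0) in the 3 shZdhhc17 and 3 shSCR libraries, 1 panel per gene; points are libraries, and bars mark the mean with SD. The groups overlap in every panel, and shSCR replicate 3 is the highest point for Cdh1, at 228 CPM, and the lowest for Cdh2, at 23.6 CPM.

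With Zdhhc17 silenced, none of the transition genes passed the test. The estimates pointed to less Cdh1 and more Cdh2 RNA in shZdhhc17 metastases, while the 4 testable transcription factors other than Twist1 had estimates within 0.25 of 0 on the log2 scale. Of the 9 genes with enough counts to be tested, 0 had an edgeR adjusted p under 0.05, where 0% of all 15567 tested genes did. At an unadjusted p under 0.05 there were 2 of 9 (Cdh1 and Cdh2), or 22.2%, where 11.4% of all tested genes did, 4.72% higher and 6.71% lower. DESeq2 and limma voom also gave 0 of these genes at an adjusted p under 0.05, although DESeq2 gave 201 of the 17127 genes with an adjusted p (1.17%). At an unadjusted p under 0.05 DESeq2 gave the same 2 genes, where 8.21% of all genes did. By the authors' deposited table, 0 of the 10 had a q-value under 0.05, where 0.844% of its genes did, and 2 had a p-value under 0.05, where 8.21% did. Of the 9 estimates, 5 were negative and 4 positive, with a median log2 fold change of -0.17, beside 49.7% negative and a median of 0.0017 over all tested genes. The groups overlapped for all 10 genes, while 17.1% of all tested genes had groups that did not overlap.

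**Figure D2:**
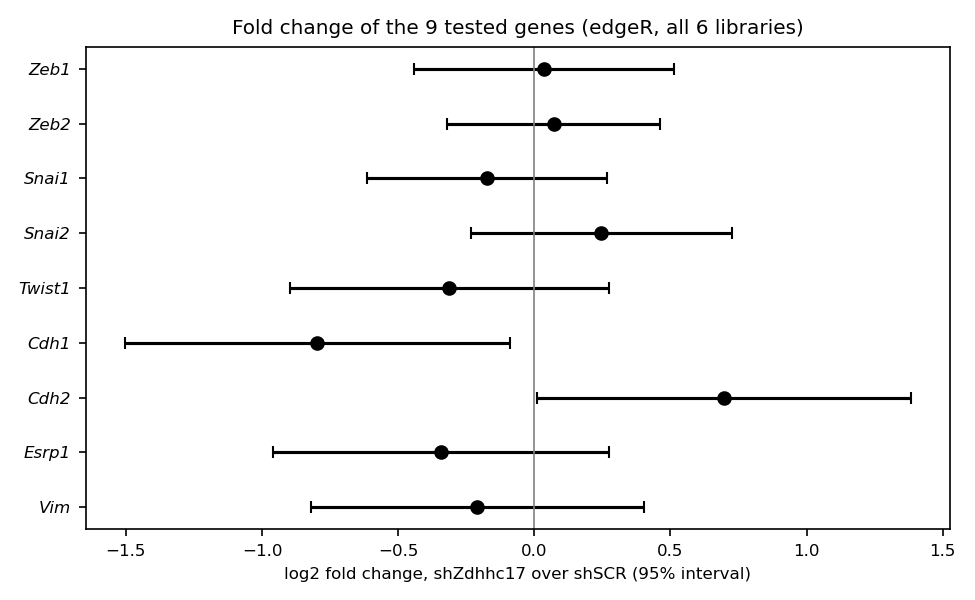
Log2 fold change of shZdhhc17 over shSCR from edgeR for the 9 tested genes, with the point as estimate and the bar as 95% confidence interval. The interval of Cdh1 runs from -1.50 to -0.09 and that of Cdh2 from 0.01 to 1.38; those of the other 7 genes span 0.

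Zeb1 (ENSMUSG00000024238.16) and Zeb2 (ENSMUSG00000026872.19) encode zinc finger and homeobox repressors of Cdh1. Zeb1 had 16.6, 24.6 and 26.9 CPM in shZdhhc17 metastases, against 25.4, 21.1 and 19.9 CPM in shSCR metastases. The lowest and the highest of its 6 values were both in shZdhhc17 libraries, and its means were 22.7 ± 5.39 CPM in shZdhhc17 and 22.2 ± 2.89 CPM in shSCR libraries (SD, n = 3 each). Its log2 fold change was 0.036 ± 0.205 (SE), with a 95% interval from -0.44 to 0.51 and an edgeR adjusted p of 0.962. Zeb2, which is also expressed in macrophages and other host cells, had 52.9, 78.4 and 78.0 CPM in shZdhhc17 metastases, against 65.4, 67.6 and 66.2 CPM in shSCR metastases. The shSCR values lay close together, with an SD of 1.11 CPM, inside the range of the silenced group, where replicate 1 was low. Its log2 fold change was 0.072 ± 0.168, with an interval from -0.32 to 0.46 and an edgeR adjusted p of 0.888.

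The sign of both Zeb estimates depends on which libraries enter. Without shZdhhc17 replicate 3 they were -0.10 for Zeb1 and -0.012 for Zeb2 on the log2 scale. The ratio of Zeb2 to Zeb1 counts, which does not depend on library scaling, was 3.18, 3.19 and 2.89 in shZdhhc17 metastases, against 2.57, 3.20 and 3.32 in shSCR metastases, and the groups overlapped. An antisense gene, Zeb2os, lies opposite Zeb2. It had 71, 46 and 69 counts in shZdhhc17 libraries, against 42, 53 and 75 in shSCR libraries, where Zeb2 had 843 to 1315 counts over the 6 libraries. The library kit marks strand, but whether the authors' counting used strand is not known here.

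Snai1 (ENSMUSG00000042821.8), the gene of the short-lived repressor Snail, had 27.7, 23.6 and 26.6 CPM in shZdhhc17 metastases, against 22.7, 28.8 and 36.4 CPM in shSCR metastases. The silenced libraries were close together, inside the wider shSCR range, which shSCR replicate 3 topped. The log2 fold change was -0.17 ± 0.19 (95% interval -0.61 to 0.27, edgeR adjusted p = 0.740), and without shSCR replicate 3 it was 0.011. Snai2 (ENSMUSG00000022676.8), the gene of the related factor Slug, had 5.97, 8.05 and 7.24 CPM in shZdhhc17 metastases, against 6.64, 5.27 and 6.02 CPM in shSCR metastases. Of the silenced libraries 2 stood above all shSCR libraries and replicate 1 did not. The log2 fold change was 0.25 ± 0.21 (95% interval -0.23 to 0.72, edgeR adjusted p = 0.658), on 95 to 135 counts per library. Snail outnumbered Slug in every library, with a ratio of counts between 2.93 and 6.06 and overlapping groups.

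Twist1 (ENSMUSG00000035799.7), a basic helix-loop-helix factor that is prominent in fibroblasts as well as in invasive carcinoma cells, had 19.8, 13.8 and 9.68 CPM in shZdhhc17 metastases, against 16.6, 18.5 and 18.7 CPM in shSCR metastases. Silenced replicates 2 and 3 lay below all shSCR libraries, and silenced replicate 1 lay above all of them. The log2 fold change was -0.31 ± 0.25 (95% interval -0.90 to 0.27, edgeR adjusted p = 0.644). Without shZdhhc17 replicate 1 it was -0.60, with an edgeR unadjusted p of 0.0193 and an adjusted p of 0.303, and without shZdhhc17 replicate 3 it was -0.090. Twist2 (ENSMUSG00000007805.5), its close relative, was near the limit of detection, with 6, 4 and 6 counts in shZdhhc17 libraries, against 6, 9 and 16 in shSCR libraries. It did not pass the filter on low counts. In the authors' deposited table it stands at a log2 fold change of -0.72 with a p-value of 0.340, so no difference was detectable at this depth.

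Cdh1 (ENSMUSG00000000303.13) encodes E-cadherin, the adhesion molecule of epithelial adherens junctions, which 4T1 cells are known to retain. It had 105, 85.1 and 74.4 CPM in shZdhhc17 metastases, against 131, 101 and 228 CPM in shSCR metastases. Silenced replicates 2 and 3 were the lowest of all, and silenced replicate 1 lay just above shSCR replicate 2. The means were 88.3 ± 15.7 CPM in shZdhhc17 and 153 ± 66.6 CPM in shSCR libraries (SD, n = 3 each), with a log2 fold change of -0.80 ± 0.30, a 95% interval from -1.50 to -0.09 and an edgeR adjusted p of 0.405 (unadjusted 0.0320). The estimate rested in good part on a single library: without shSCR replicate 3 the log2 fold change was -0.39, with an edgeR unadjusted p of 0.0836. It kept its sign in all 23 alternatives, which ran from -1.02 without shSCR replicate 2 to that value. The authors' deposited table gives -0.77 with a p-value of 0.0118 and a q-value of 0.244.

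Cdh2 (ENSMUSG00000024304.15) encodes N-cadherin, which replaces E-cadherin in the textbook cadherin switch. It had 34.8, 68.2 and 61.5 CPM in shZdhhc17 metastases, against 38.9, 39.1 and 23.6 CPM in shSCR metastases. Silenced replicates 2 and 3 were above all shSCR libraries, while silenced replicate 1 lay below shSCR replicates 1 and 2. The means were 54.8 ± 17.7 CPM in shZdhhc17 and 33.8 ± 8.89 CPM in shSCR libraries (SD, n = 3 each), with a log2 fold change of 0.70 ± 0.29, a 95% interval from 0.01 to 1.38 and an edgeR adjusted p of 0.432 (unadjusted 0.0473). Without shSCR replicate 3 the estimate was 0.49 (edgeR unadjusted p = 0.116), and without shZdhhc17 replicate 1 it was 0.94 (edgeR unadjusted p = 0.00813, adjusted p = 0.282). The authors' deposited table gives 0.71 with a p-value of 0.0256 and a q-value of 0.340.

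The cadherin levels are set beside the hepatocyte marker sums here, and a cause was not tested. The library with the least hepatocyte RNA, shSCR replicate 3, had the highest Cdh1 and the lowest Cdh2. Apart from that library, Cdh1 followed the sums in no steady order. In shSCR replicate 1 a sum of 53126 CPM went with 131 CPM of Cdh1, and in shSCR replicate 2 a sum of 39579 CPM with 101 CPM. Silenced replicates 2 and 3, which were among the 3 libraries with the highest hepatocyte sums, had the highest Cdh2 and the lowest Cdh1, while shSCR replicate 1, also among the 3, did not. With the mean hepatocyte marker level as a covariate, the edgeR log2 fold change was -0.49 for Cdh1 (unadjusted p = 0.0585) and 0.43 for Cdh2 (unadjusted p = 0.0713). With the carcinoma epithelial level instead, it was -0.75 for Cdh1 (edgeR unadjusted p = 0.0759) and 0.47 for Cdh2 (edgeR unadjusted p = 0.200). The list of 14 stellate cell and fibroblast markers, whose sums did not overlap between the groups, has no such fit, and its part in either cadherin's level was not tested.

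The balance of the 2 cadherins can be read within a library, free of its scaling. Cdh1 counts exceeded Cdh2 counts in every library, 3.03, 1.25 and 1.21 times in shZdhhc17 metastases, against 3.36, 2.59 and 9.69 times in shSCR metastases. These are ratios of counts, and the merged Cdh2 exons are longer. Per kilobase of merged exons, Cdh1 exceeded Cdh2 5.34, 2.20 and 2.13 times in shZdhhc17 metastases, against 5.93, 4.56 and 17.1 in shSCR metastases. The size of the ratio per kilobase depends on which exons are annotated. Silenced replicates 2 and 3 had the lowest ratios and shSCR replicate 3 the highest, and the groups overlapped, since silenced replicate 1 stood above shSCR replicate 2. On the log2 scale the ratio was lower by 1.40 in the shZdhhc17 group (means 0.73 ± 0.75 in shZdhhc17 and 2.13 ± 1.01 in shSCR libraries, SD, n = 3 each). Without shSCR replicate 3 the difference was -0.83. Vim counts exceeded Cdh1 counts 17.4, 16.1 and 14.8 times in shZdhhc17 metastases, against 13.5, 13.9 and 7.92 times in shSCR metastases. All silenced libraries had the higher ratio, by 0.49 on average on the log2 scale, and by 0.23 without shSCR replicate 3, which lay lowest. No share over other pairs of genes was computed for such a separation. Vim itself had a log2 fold change of -0.21 with overlapping groups, beside -0.80 for Cdh1. The higher ratio thus went with less Cdh1 and not with more Vim. These ratios were chosen with the values known and are given without a test.

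**Figure D3:**
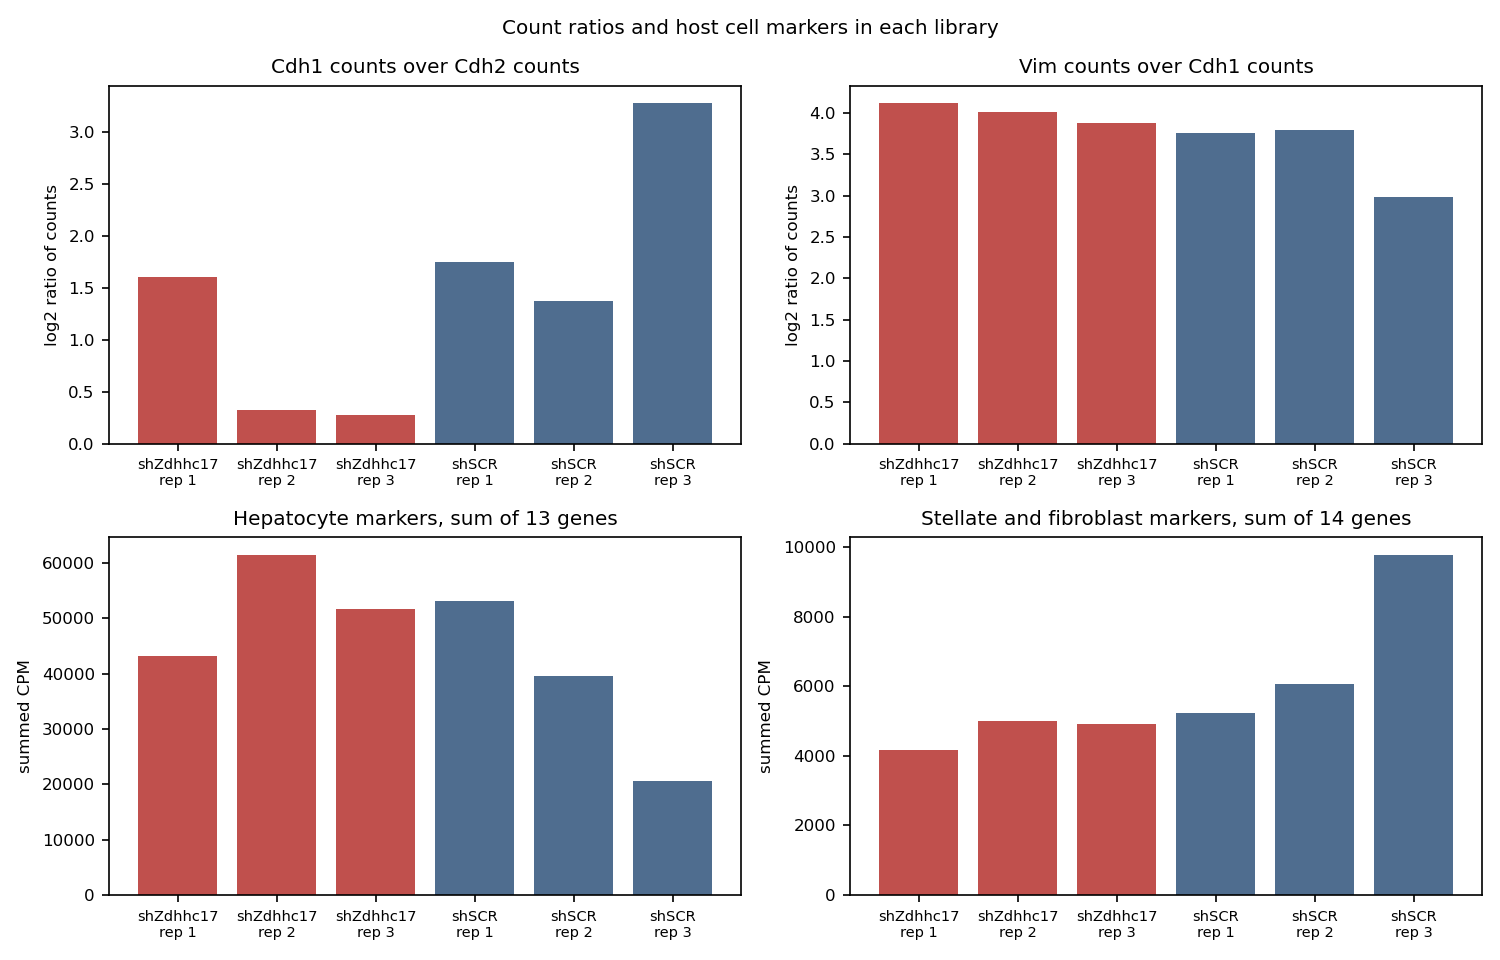
Ratios of Cdh1 to Cdh2 and of Vim to Cdh1 in each library (log2 of the ratio of counts), above the summed CPM of 13 hepatocyte markers and of 14 stellate cell and fibroblast markers; each bar is 1 library, shZdhhc17 in red left of shSCR in blue. The Cdh1 to Cdh2 ratio is highest in shSCR replicate 3, at 3.28, which also has the lowest hepatocyte sum, at 20638 CPM.

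Vim (ENSMUSG00000026728.10), the gene of the mesenchymal intermediate filament protein vimentin, was the most abundant of the 10 transcripts. It had 1831, 1370 and 1098 CPM in shZdhhc17 metastases, against 1764, 1400 and 1809 CPM in shSCR metastases. Silenced replicate 1 was the highest of all libraries and replicates 2 and 3 were the lowest, as with Twist1. The means were 1433 ± 370 CPM in shZdhhc17 and 1657 ± 224 CPM in shSCR libraries (SD, n = 3 each), and the log2 fold change was -0.21 ± 0.26 (95% interval -0.82 to 0.40, edgeR adjusted p = 0.778). The estimate lay on the other side of 0 from that of Cdh2, the other mesenchymal marker, and that difference was not tested.

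Esrp1 (ENSMUSG00000040728.16), an RNA-binding protein gene restricted to epithelia, had 22.4, 13.8 and 13.7 CPM in shZdhhc17 metastases, against 26.9, 20.5 and 15.8 CPM in shSCR metastases. Silenced replicates 2 and 3 were below all shSCR libraries, and silenced replicate 1 lay between shSCR replicates 1 and 2. The log2 fold change was -0.34 ± 0.27 (95% interval -0.96 to 0.28, edgeR adjusted p = 0.631). It was -0.61 without shZdhhc17 replicate 1 (edgeR unadjusted p = 0.0477, adjusted p = 0.353) and -0.12 without shSCR replicate 1. Esrp1 and Cdh1, both epithelial, did not keep a fixed proportion: Esrp1 counts were 0.212, 0.163 and 0.184 times those of Cdh1 in shZdhhc17 metastases, against 0.206, 0.203 and 0.0693 times in shSCR metastases. The library that stood out was shSCR replicate 3, which had the most Cdh1 but not the most Esrp1. The paralog Esrp2 was estimated at 0.25 ± 0.27 on the log2 scale, on the other side of 0 (edgeR adjusted p = 0.740).

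**Figure D4:**
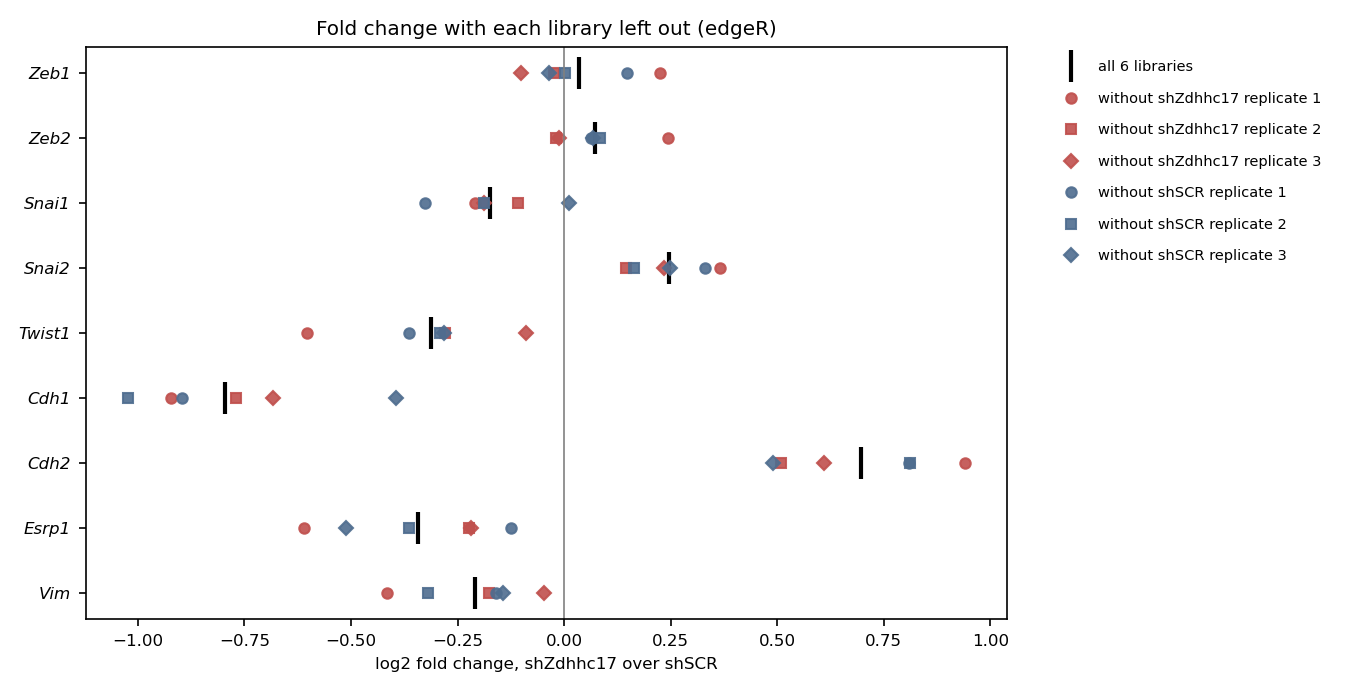
Log2 fold change of shZdhhc17 over shSCR from edgeR for the 9 tested genes, with all 6 libraries (black bar) and with each library left out (coloured marks, red for shZdhhc17 and blue for shSCR libraries). Cdh1 stays below 0, from -1.02 to -0.39, and Cdh2 above 0, from 0.49 to 0.94; Zeb1, Zeb2 and Snai1 lie on both sides of 0.

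Genes that act around the 10 regulators were read from lists chosen by function, with earlier results of these data known, and none of these genes had an edgeR adjusted p under 0.05. Of 28 epithelial junction and polarity genes, 15 had positive and 13 negative estimates, with a median of 0.026 on the log2 scale. At an unadjusted p under 0.05, 3 were higher and 2 lower, where 4.72% of all tested genes were higher and 6.71% lower, which is the background for each list of genes described here. Lsr, a protein of tricellular junctions, stood at 0.49 ± 0.13 (SE) and Mal2, a protein of apical transport, at 0.58 ± 0.20, both with all silenced libraries above all shSCR libraries, as in 7.46% of all tested genes. Krt19, an epithelial keratin, stood at -0.92 ± 0.34, and Krt18, the list's most abundant member, at -0.28 ± 0.28. Of 9 tested epithelial-state transcription factors, 3 estimates were positive and 6 negative (median -0.17), and 1 was lower at an unadjusted p under 0.05, Gata3, a luminal mammary factor, at -0.52 ± 0.20.

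Of 25 mesenchymal genes, 8 had positive and 17 negative estimates in shZdhhc17 metastases, with a median log2 fold change of -0.16 beside 0.0017 over all tested genes. At an unadjusted p under 0.05, 1 was higher and 6 were lower, where 4.72% of all tested genes were higher and 6.71% lower. Tnc, the matrix glycoprotein tenascin C, had 124, 107 and 89.3 CPM in shZdhhc17 metastases, against 169, 153 and 176 CPM in shSCR metastases (log2 fold change -0.64 ± 0.16, edgeR adjusted p = 0.307). Loxl2, a collagen-crosslinking lysyl oxidase, stood at -0.64 ± 0.17 (edgeR adjusted p = 0.307), and Col1a2, a chain of type I collagen, at -0.85 ± 0.33 (edgeR adjusted p = 0.409). In each of these 3 genes, which were named for their small p-values, all silenced libraries were below all shSCR libraries, as in 9.62% of all tested genes. Fn1, fibronectin, the most abundant of the list and also a hepatocyte product, stood at 0.52 ± 0.30 with overlapping groups. The stellate cell and fibroblast marker sums given above were lower in the silenced group as well, but the 2 lists share genes. Acta2, Col1a1, Col1a2, Col3a1, Postn and Thy1 are on both. Of these, Col1a1, Col1a2, Postn and Thy1 are among the 6 mesenchymal genes lower at an edgeR unadjusted p under 0.05. The sums are therefore not a separate observation.

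**Figure D5:**
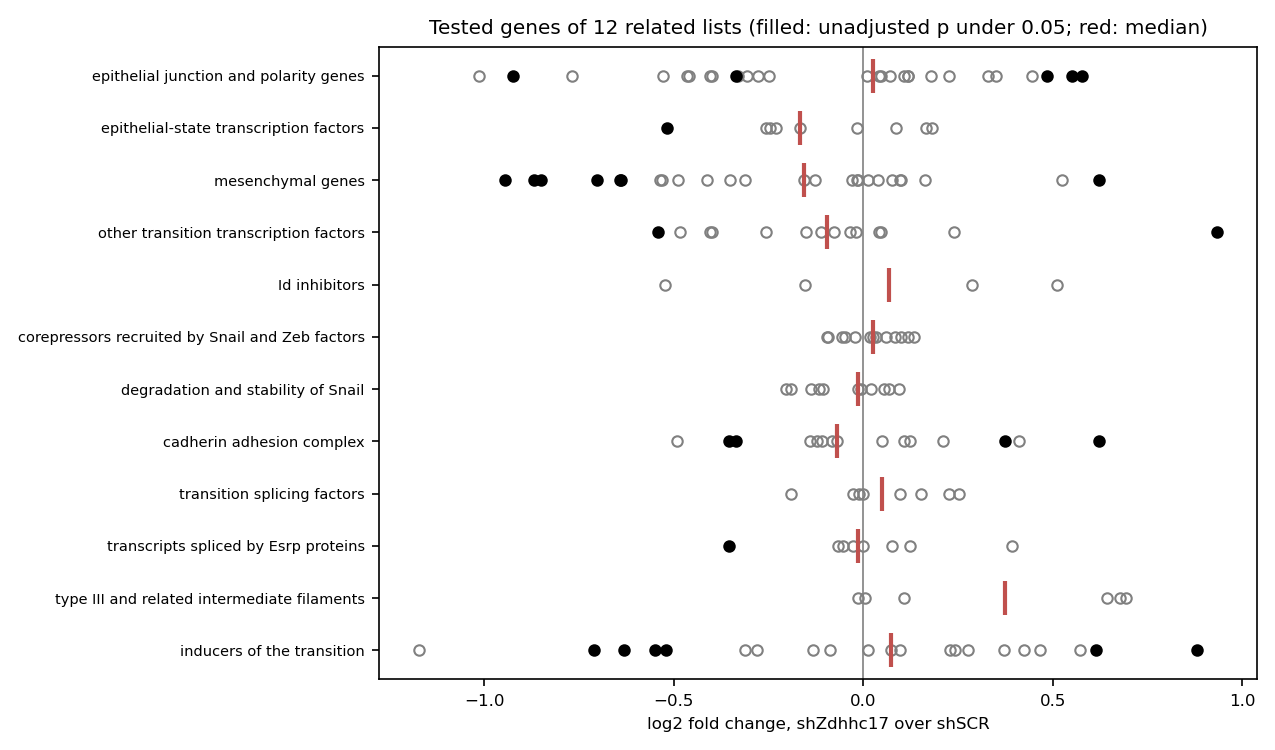
Log2 fold change of shZdhhc17 over shSCR from edgeR for each tested gene of the lists around the 10 regulators, 1 row per list; points are genes, filled at an unadjusted p under 0.05, and the red bar marks the list's median. The medians lie between -0.17 for epithelial-state transcription factors and 0.37 for intermediate filament genes, and no gene had an adjusted p under 0.05.

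Other transcription factors that can drive the transition gave 4 positive and 10 negative estimates of 14 tested (median -0.095), with 1 higher and 1 lower at an unadjusted p under 0.05. Foxq1, a forkhead factor that represses Cdh1, had 11.9, 18.6 and 25.2 CPM in shZdhhc17 metastases, against 12.2, 10.4 and 6.41 CPM in shSCR metastases. Silenced replicate 1 lay within the shSCR range and the other two above it, with a log2 fold change of 0.93 ± 0.33 (edgeR adjusted p = 0.390). Prrx1, a factor typical of mesenchymal cells, stood at -0.48 ± 0.24, and Tcf4, the most abundant of the list, at -0.26 ± 0.16. Of the 4 Id genes, whose products block basic helix-loop-helix factors such as Twist1, 2 estimates were positive and 2 negative, with Id3 at -0.52 ± 0.23 and Id2 at 0.29 ± 0.14.

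A list of 21 genes around signals that induce the transition also holds receptors, Smad proteins and Bmp7, and not every member need induce it. Of its estimates, 12 were positive and 9 negative (median 0.073), with 2 higher and 4 lower at an edgeR unadjusted p under 0.05. The 3 with the smallest p-values were all lower in every silenced library. Jag1, a Notch ligand, had 31.6, 22.1 and 24.2 CPM in shZdhhc17 metastases, against 41.6, 39.2 and 46.7 CPM in shSCR metastases (log2 fold change -0.71 ± 0.17). Smad3, which carries the TGF-beta signal to the nucleus and induces Snai1, had 125, 118 and 112 CPM in shZdhhc17 metastases, against 154, 177 and 178 CPM in shSCR metastases (log2 fold change -0.52 ± 0.13). Tgfb3, a TGF-beta ligand, had 59.6, 54.7 and 58.0 CPM in shZdhhc17 metastases, against 71.9, 84.0 and 96.1 CPM in shSCR metastases (log2 fold change -0.55 ± 0.14). Each had an edgeR adjusted p of 0.307, where the smallest over all tested genes was 0.0906. The groups of these 3 genes did not overlap, as in 9.62% of all tested genes in that direction.

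A list of other cadherins and of the partners of cadherins at the membrane gave 7 positive and 8 negative estimates of 15 tested (median -0.069). Of these, 2 were higher and 2 lower at an edgeR unadjusted p under 0.05. Ctnnd1, p120 catenin, which stabilizes cadherins at the cell surface and whose transcript is also spliced by Esrp proteins, stood at -0.35 ± 0.13, with all silenced libraries below all shSCR libraries. Afdn, the junction adaptor afadin, stood at 0.37 ± 0.14 with all silenced libraries above, and Cdh11, a mesenchymal cadherin, at 0.62 ± 0.25 with overlapping groups. Of all tested genes, 9.62% had groups apart in the lower direction and 7.46% in the higher. Ctnnb1, beta-catenin, the most abundant of the list, stood at -0.11 ± 0.17. Gene counts do not show splice forms, so Esrp1 activity was not measured. Among 8 tested transcripts that Esrp proteins splice, 4 estimates were positive and 4 negative (median -0.013), with Fgfr2 at 0.39 ± 0.21 and Cd44 at 0.076 ± 0.216.

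The genes whose profile over the 6 libraries lay nearest to that of each regulator were found among 11882 genes with a mean of at least 5 CPM, by the root mean square distance between centred log2(CPM + 1) values. For Cdh1 they were Cthrc1, a secreted matrix protein gene, at 0.0681, and Ccl12, a chemokine gene, at 0.119, where the profile of Cdh1 itself departed from its own mean by 0.519. For Cdh2 they were Atp7b, a copper transporter gene of the liver, at 0.0674 and Rxra, a nuclear receptor gene, at 0.0709 (own departure 0.501). Vim lay nearest to Wnt7b (0.0458) and Apbb2 (0.0578), Esrp1 to Chn1 (0.0635) and Ctnnal1 (0.0767), and Twist1 to Rplp0-ps1 (0.0743), a pseudogene whose counts are uncertain because it resembles its parent gene, and Kif3c (0.0838). The profiles of Zeb2, Snai1 and Snai2 were flatter, with own departures of 0.187, 0.214 and 0.173, and lay nearest to Fgd6 (0.0225), Maz (0.0232) and Sh3bgrl2 (0.0476), one each in that order. Zeb1 lay nearest to the unnamed gene ENSMUSG00000119959 (0.0518). With 6 libraries, many profiles are alike, and these names are a description.

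The authors' deposited enrichment table places the transition among sets that did not pass. The Hallmark epithelial-mesenchymal transition set, with 199 genes, has a normalized enrichment score of -0.975, a p-value of 0.500 and a q-value of 0.833 in the authors' deposited table, and none of the 10 genes is among its 41 leading genes. In the authors' deposited table the N-cadherin pathway has a score of 1.03 with Cdh2 among its leading genes (q-value 0.784), and the nascent E-cadherin junction pathway -0.862 with Cdh1 among them (q-value 0.917). The E-cadherin stabilization pathway has the highest score of the cadherin sets in the authors' deposited table, 1.15, with none of the 10 genes among its leading genes (q-value 0.658). The TGF-beta set for the transition has a score of 0.574 and a q-value of 1 in the authors' deposited table.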

How the data were processed

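The authors deposited raw counts per gene, whole numbers without normalization, for 6 libraries, and also a DESeq2 table (log2 fold changes with p-values and q-values, beside a score for ranking) and normalized enrichment scores of gene sets. Per the submitters' processing notes, DESeq2 1.34.0, HTSeq, STAR 2.6.1 and FastQC 0.11.8 were used, in roles that the notes leave out, on build GRCm39. Groups come from the sample titles. Counts were tested with edgeR 4.0.16 in R 4.3.3 (robust glmQLFit, two-sided glmQLFTest, TMM, filterByExpr, 15567 genes, Benjamini-Hochberg over all of them), first tested on simulated data. Standard errors and 95% intervals were derived from the F statistic. Totals of 15832837 to 19186615 counts set the depth. No 2 libraries of a group agreed within sampling noise: the smallest chi-square per gene within a group was 14.6.

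The 10 genes and all lists were chosen with earlier results of these data known. Genes named besides them are, per list, the 3 with the smallest p at a mean of at least 1 CPM and the most abundant, the top gene of cell type lists, the 2 nearest profiles per regulator, and Zdhhc17. Not all are printed, a few are not reported here, and Esrp2 and Zeb2os, outside this rule, were named after their values were seen. Elf5, Gsc, Qki and Tf were not matched and are not analysed here. Alternatives were library totals alone, size factors of DESeq2, no filter, at least 10 counts in 3 libraries, DESeq2 1.42.0, voom of limma 3.58.1, no robust estimation, the replicate number as a block, hepatocyte or carcinoma epithelial markers as covariate, leaving out Rn18s-rs5 (an 18S ribosomal RNA copy) and leaving out each library; DESeq2, and the count ratios, without each library were added after seeing the data. Exon lengths and untranslated regions are from GENCODE M21 on GRCm38 and microRNAs from RefSeq, joined by gene or microRNA name; no coordinates of genes were converted.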

Additional observations from a re-analysis of the deposited data

How the results depend on the processing

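None of the 10 genes had an adjusted p under 0.05 under any of the 23 alternatives, where the smallest adjusted p of any was 0.0565, for Cdh2 with DESeq2 without shZdhhc17 replicate 1. The estimates of Cdh1, Cdh2, Esrp1, Snai2, Twist1 and Vim kept their sign in 23 of 23 alternatives, Snai1 in 20, Zeb2 in 18 and Zeb1 in 14. Zeb1 turned to -0.094 with library totals alone, -0.077 with the hepatocyte covariate and -0.10 with the carcinoma epithelial covariate. It was -0.023, -0.10 and -0.036 in edgeR, and -0.0067, -0.085 and -0.039 in DESeq2, without shZdhhc17 replicate 2, shZdhhc17 replicate 3 and shSCR replicate 3, one each in that order. Zeb2 turned to -0.069 with library totals alone, -0.093 with the carcinoma epithelial covariate, -0.020 without shZdhhc17 replicate 2 (-0.0019 in DESeq2) and -0.012 without shZdhhc17 replicate 3. Snai1 turned to 0.014 with the hepatocyte covariate and to 0.011 without shSCR replicate 3 (0.0065 in DESeq2). Without a single library, edgeR gave -0.10 to 0.22 for Zeb1, -0.020 to 0.24 for Zeb2 and -0.33 to 0.011 for Snai1. The cause was not tested. Library totals alone moved the median of all genes to -0.13 and the calls at an unadjusted p under 0.05 to 397 higher and 1544 lower, against 735 and 1045. Of the 10 genes, 2 were at an unadjusted p under 0.05; this count was 1 with library totals alone, 1 with voom, 0 with either covariate, 0 to 4 without a single library in edgeR and 0 to 5 in DESeq2. The replicate block gave 0 of them as well; the numbers were not taken to pair the samples, as libraries with the same number correlated at -0.059, 0.315 and -0.046 and not every library correlated best with its own number. Over all genes, the count at an adjusted p under 0.05 was 0 in edgeR, 3 without the filter, 201 in DESeq2, 0 to 1 without a single library (1 without shSCR replicate 3) and 369, 96, 34, 691, 115 and 99 in DESeq2 without shZdhhc17 replicates 1, 2 and 3 and shSCR replicates 1, 2 and 3, in this order. At an unadjusted p under 0.05 it was 1780, and 950 to 2885 without a single library. Twist2, at 4 to 16 counts, is limited by depth.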

Other observations

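Genes that act on the Snail and Zeb proteins had estimates near 0. Of 13 corepressors that these factors recruit, 8 estimates were positive and 5 negative, all between -0.095 and 0.13 on the log2 scale, with 0 at an edgeR unadjusted p under 0.05. Ctbp1, the C-terminal binding protein that Zeb factors recruit and the most abundant of them, had 187, 143 and 142 CPM in shZdhhc17 metastases, against 143, 143 and 166 CPM in shSCR metastases. Of 11 genes that set the stability of Snail, 4 estimates were positive and 7 negative (median -0.014), with 0 at an edgeR unadjusted p under 0.05. Fbxo11, a ubiquitin ligase subunit for Snail, stood at -0.20 ± 0.13 (SE).

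Splicing factors of the transition gave 4 positive and 4 negative estimates of 8 tested (median 0.049), with 0 at an edgeR unadjusted p under 0.05. Celf1 had 176, 179 and 176 CPM in shZdhhc17 metastases, against 140, 148 and 165 CPM in shSCR metastases (log2 fold change 0.23 ± 0.13, edgeR adjusted p = 0.517). All silenced libraries were above all shSCR libraries for Celf1, as in 7.46% of all tested genes. Rbfox2 stood at -0.19 ± 0.14 and Hnrnpm at 0.15 ± 0.15. Of 6 other intermediate filament and linker genes, 5 estimates were positive and 1 negative (median 0.37), with 0 at an edgeR unadjusted p under 0.05. The largest belonged to Prph, at 0.69 ± 0.47, and Synm, at 0.68 ± 0.39, which had at most 42 counts in a library. Plec, the abundant linker protein plectin, stood at -0.014 ± 0.187. Neutrophil markers summed to 707, 514 and 850 CPM in shZdhhc17 metastases, against 236, 408 and 242 CPM in shSCR metastases. Their estimates were positive in 9 of 10 genes (median log2 fold change 1.86). At an edgeR unadjusted p under 0.05, 7 of them were higher and 0 lower, where 4.72% of all tested genes were higher. Markers of T and NK cells had negative estimates in 10 of 10 genes (median -1.18). At an edgeR unadjusted p under 0.05, 3 of them were lower, where 6.71% of all tested genes were. Their sums overlapped, at 9.67 to 25.6 CPM in shZdhhc17 metastases, against 13.3 to 63.8 CPM in shSCR metastases. Dendritic cell markers had negative estimates in 7 of 7 genes, 3 of them at an edgeR unadjusted p under 0.05, beside the same 6.71%. Their sums did not overlap, at 27.0 to 43.2 CPM in shZdhhc17 metastases, against 45.1 to 110.0 CPM in shSCR metastases. No share over all genes was computed for such sums. The part of these cells in the levels of the 10 genes was not tested.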
